A study of Mus musculus with 28 samples.

Results

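The genes described here encode the main chains and linkers of the kidney basement membrane: the type IV collagen chains Col4a1, Col4a2, Col4a3, Col4a4 and Col4a5, the laminin chains Lama5, Lamb2 and Lamc1, the linker nidogen 1 (Nid1) and the heparan sulfate proteoglycan perlecan (Hspg2). They were chosen by symbol, and all 10 were found among the 14845 genes of the deposited table. RNA was measured by bulk RNA-seq in 28 kidney libraries of male mice. Controls were db/m mice with both kidneys intact, with 5 libraries at 26 weeks of age and 6 at 35 weeks. The diseased groups were db/db mice that had been uninephrectomized (Unx, 1 kidney removed), with 12 libraries at 26 weeks of age and 5 at 35 weeks. The db/db mouse carries a germline mutation of both copies of Lepr, the leptin receptor gene, and becomes obese and diabetic; db/m mice, with a single mutant copy, are its usual controls. Every db/db mouse was Unx and every db/m mouse intact, so genotype and surgery cannot be told apart, and the contrast of diseased and control mice of equal age is called the disease comparison. The labels do not say that libraries come from separate animals; if they do not, the p-values measure technical spread alone.

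Basement membranes are thin sheets of matrix on which epithelial and endothelial cells rest. Type IV collagen chains assemble in threes: alpha1 and alpha2 chains form the network found in nearly all basement membranes, while alpha3, alpha4 and alpha5 chains form a more heavily cross-linked network that predominates in the mature glomerular basement membrane, where podocytes make it, and also lies under parts of the tubule. Inherited loss of an alpha3, alpha4 or alpha5 chain causes Alport syndrome. The laminin of the mature glomerular filter is built of alpha5, beta2 and gamma1 chains, nidogen bridges laminin to collagen IV, and perlecan carries the heparan sulfate side chains of many basement membranes. A thickened glomerular basement membrane and an expanded mesangial matrix are classical lesions of diabetic kidney disease.

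The collagen IV genes lie in head-to-head pairs, each pair with its starts next to each other on opposite strands, and the 4 members of 2 such pairs are the most abundant genes described here, so the sequence at their starts is shown. Coordinates are those of GRCm38. Col4a1 (chromosome 8, 11198423 to 11312826, minus strand) and Col4a2 (chromosome 8, 11312805 to 11449287, plus strand) overlap by 22 bases in their first exons. Col4a4 (chromosome 1, 82448423 to 82586849, minus strand) and Col4a3 (chromosome 1, 82586921 to 82722059, plus strand) start 71 bases apart. Col4a5 (chromosome X, 141475385 to 141689234, plus strand) starts 1308 bases from Col4a6 on the other strand. The plus strand over the Col4a1 and Col4a2 starts, chr8:11312797-11312826, and over the gap between Col4a4 and Col4a3, chr1:82586850-82586920, reads 5′ to 3′ as follows, from RefSeq on GRCm38.p6, with matches to the GC box GGGCGG in capitals.
Col4a1 and Col4a2 starts: ccctcggcagtgcgcGGGCGGcgtctccaa
Col4a4 to Col4a3 gap: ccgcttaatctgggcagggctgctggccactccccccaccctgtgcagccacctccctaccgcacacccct
The 250 bases before the start of Lama5 (chromosome 2, 180176373 to 180225859, minus strand), the member laminin chain with the largest change, read as follows on the minus strand, chr2:180225860-180226109.
Lama5 upstream: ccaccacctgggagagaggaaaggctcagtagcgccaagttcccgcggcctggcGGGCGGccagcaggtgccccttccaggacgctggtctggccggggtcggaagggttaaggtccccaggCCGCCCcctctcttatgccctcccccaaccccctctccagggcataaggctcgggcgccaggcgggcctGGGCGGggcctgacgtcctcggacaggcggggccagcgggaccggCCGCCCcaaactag

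Promoter windows of 300 bases were found for 8 of the 10 members. On either strand, the GC box GGGCGG occurred 5 times in the Hspg2 window, 4 times in that of Lama5 and 3 times in that of Col4a2. It occurred 1 time each in those of Col4a1, Col4a5 and Nid1, and did not occur in those of Col4a4 and Lamb2. Of the 32851 mouse promoter windows, 35.7% held it. CCAAT occurred 1 time each in the windows of Col4a1, Col4a2, Col4a5 and Nid1 and in no other member window found. It was held by 37.4% of all windows. The TATA box (searched as TATAAA, in 13.6% of all windows) occurred in none of these 8 windows. The homeodomain core (searched as TAATTA, in 5.29%) and the AP-1 site (searched as TGANTCA, in 7.81%) were absent from them too. A match or its absence describes only these letters in these windows.

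Values are the authors' scaled expression values per gene and library. Estimated depth was 21.8 to 30.8 M (megacounts) per library, and the members rested on 178 (Lamc1) to 6760 (Col4a1) estimated counts in a library. Col4a5, Lamc1 and Hspg2 had the lowest such counts, down to 199, 178 and 192, and the largest standard errors of the log2 change. In the 26-week disease comparison these errors were 0.17, 0.14 and 0.16, beside 0.13 for Nid1, whose counts went down to 460. Whether the counts set these errors was not tested. On the second principal component, 3 of the 5 older db/db Unx libraries lay below all other libraries. These were 35-week replicates 3, 5 and 6, at -42.8, -26.7 and -20.1. Member log2 changes of the 35-week disease comparison that lose a call or move by over 1.5 times without them are given both ways. Leaving them out keeps 2 libraries in that group. List and marker counts at 35 weeks that change, and some single genes of the lists, are also given both ways. Proximal tubule markers were high in every library, with a summed value of 12630 to 21290, and 2 of the 5 adrenal and 1 of the 5 adipocyte markers were in the table, with sums of at most 4.23 and 2.59.

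Divided by exon length, the 4 paired collagen IV genes stood far above the rest in every group. In 26-week db/m kidneys the level per kb of exon was 18.2 ± 1.13 (SD, n = 5) for Col4a1, 16.3 ± 1.49 for Col4a2, 15.9 ± 1.51 for Col4a3 and 14.9 ± 1.04 for Col4a4. The library ranges of neighbours in this order overlapped. Nid1 followed at 4.11 ± 0.80 and Lamb2 at 3.75 ± 0.34, which overlapped in spread. Below Lamb2, and not overlapping with it, came Lama5 at 2.40 ± 0.36, then Col4a5 at 2.12 ± 0.64 and Lamc1 at 1.60 ± 0.52, each overlapping with the next. Hspg2 was lowest at 0.90 ± 0.17. Among all genes of the table the level per kb of Col4a1 was at percentile 82.4 and that of Hspg2 at 28.8. In 35-week db/db Unx kidneys (n = 5) these 4 genes kept their order but not their spacing: Col4a1 stood at 23.8 ± 2.55 and Col4a2 at 21.3 ± 1.63 per kb, while Col4a3 stood at 10.8 ± 0.67 and Col4a4 at 10.1 ± 1.13. Coverage bias along transcripts of this length was not tested, so levels between genes are approximate.

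**Figure D1:**
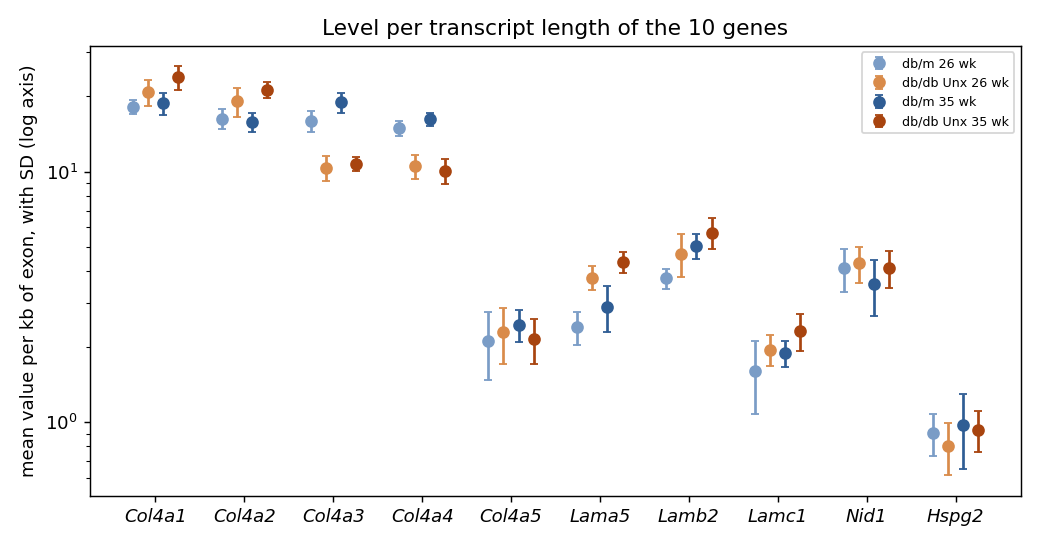
Mean value per kb of exon (log axis) with SD for the 10 genes in the 4 groups. Col4a1, Col4a2, Col4a3 and Col4a4 lie above 10 per kb in every group, the other 6 genes lie below 6, and Col4a3 and Col4a4 are lower in both db/db Unx groups.

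The disease comparison asked which of these genes differ in the diseased kidney. At both ages the alpha3 and alpha4 chains fell, Col4a3 by 35.0% and 42.8% and Col4a4 by 29.5% and 37.9% on the log2(value + 1) scale. The alpha2 chain (Col4a2) and laminin alpha5 (Lama5) rose. The rise of Col4a2 was less firm: its 26-week call was lost in some other fits. Its 35-week call was lost without the 3 libraries that lay apart (limma, adjusted p 0.0694). At 26 weeks limma called 5 of the 10 members (34.9% of the 13495 genes tested were called), 3 higher (17.2% were called higher) and 2 lower (17.7% were called lower). At 35 weeks it called 5 again (32.3% of genes), 3 higher (15.9% of genes) and 2 lower (16.4%). The groups did not overlap for 3 members at 26 weeks (12.8% of genes) and for 4 at 35 weeks (18.1%). The median log2 change of the members was 0.15 at 26 weeks and 0.20 at 35 weeks, against 0.02 and 0.01 over all genes. Without the 3 libraries that lay apart, the middle member values at 35 weeks were 0.06 (Lamc1) and 0.08 (Lamb2).

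**Figure D2:**
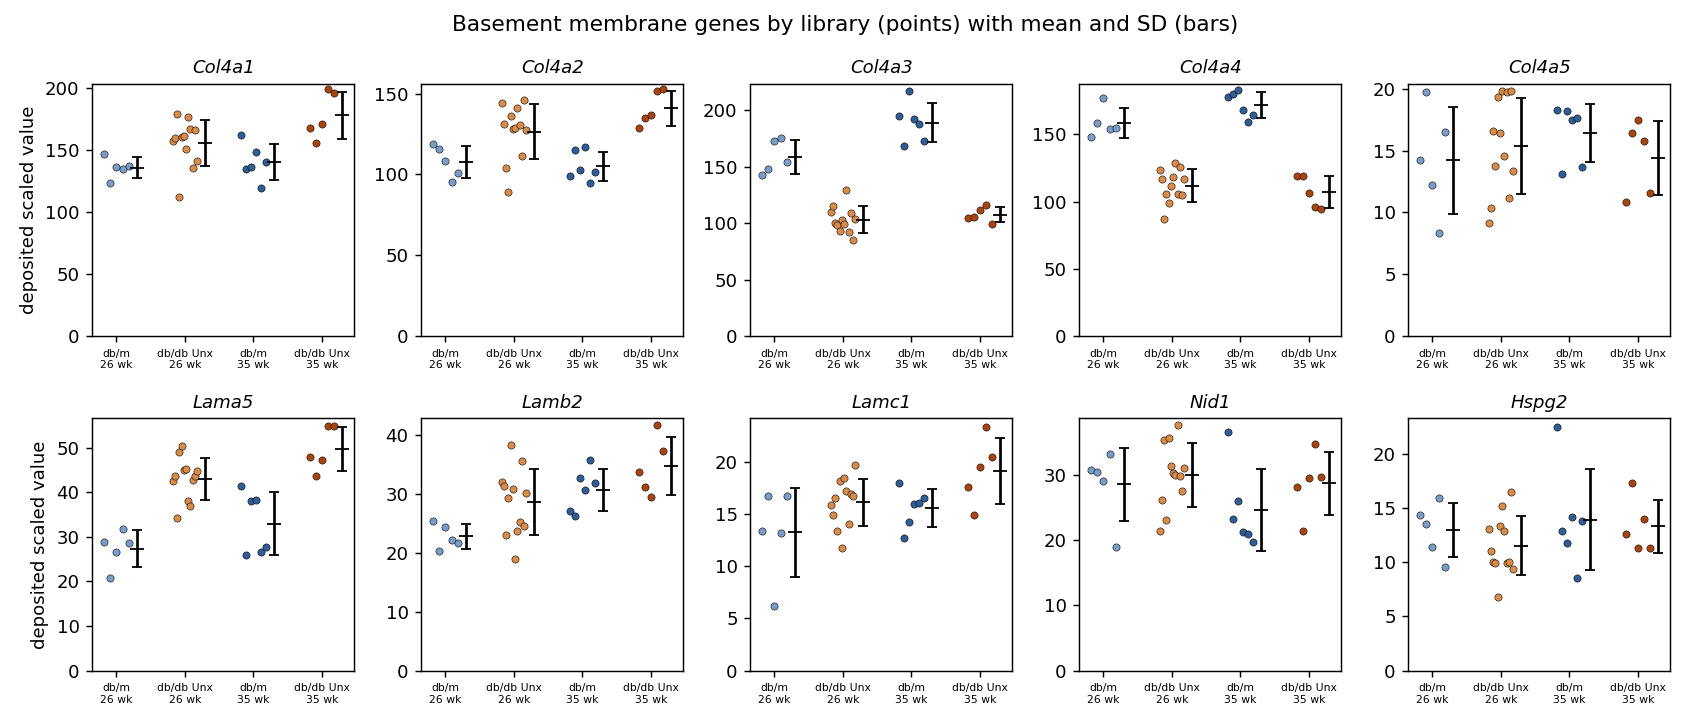
Deposited scaled value of each gene in each library (points) with the group mean and SD (bars), on axes from 0. Col4a3 and Col4a4 do not overlap between db/m and db/db Unx at either age, and Lama5 is higher in db/db Unx at both.

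Col4a3 encodes the alpha3 chain, which carries the Goodpasture autoantigen. In db/m, the 26-week libraries had 142.5, 148.5, 173.3, 175.9 and 154.3, and the 12 db/db Unx libraries ranged from 84.97 to 129.2 with a median of 101.3. At 35 weeks the db/m libraries ranged from 168.2 to 217.2 with a median of 190.4, and the db/db Unx libraries had 104.8, 105.9, 111.3, 116.5 and 98.98. Every db/db Unx library was below every db/m library, also across the ages. The log2 change was -0.62 ± 0.07 at 26 weeks (limma, adjusted p 3.45e-09) and -0.81 ± 0.08 at 35 weeks (adjusted p 2.17e-10).

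Col4a4 encodes the alpha4 chain and moved like its neighbour. Its db/m values at 26 weeks were 147.8, 158.7, 176.9, 153.9 and 154.7, against 86.79 to 128.7 (median 114.0) in db/db Unx. At 35 weeks db/m had 158.9 to 183.0 (median 172.9) and db/db Unx had 118.9, 119.1, 106.7, 95.95 and 94.18. The groups again did not overlap at either age. The log2 change was -0.50 ± 0.07 (limma, adjusted p 2.38e-07) at 26 weeks and -0.69 ± 0.08 (adjusted p 7.03e-09) at 35 weeks. The calls of Col4a3 and Col4a4 held in both comparisons under each of the 9 other settings and with each of the 28 libraries left out. Exons of C430014B12Rik, a noncoding gene on the opposite strand, share 563 bases with those of Col4a3; whether reads were counted by strand is not given in the sources used here, and Col4a4 shares exonic bases with no other annotated gene.

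Col4a5, the X-linked chain that the alpha3 and alpha4 chains need for their network, was not called at either age. In db/m at 26 weeks it had 14.23, 19.75, 12.26, 8.344 and 16.54, and db/db Unx ranged from 9.141 to 19.86 (median 15.51). At 35 weeks db/m ranged from 13.13 to 18.27 and db/db Unx had 10.88, 16.40, 17.45, 15.76 and 11.55. The groups overlapped at both ages. The 95% interval of its log2 change ran from -0.22 to 0.45 at 26 weeks and from -0.57 to 0.19 at 35 weeks. The intervals of Col4a3 ran from -0.76 to -0.48 and from -0.97 to -0.65. A direct test of the difference between the chains was not run.

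Col4a1 and Col4a2 encode the chains of the ubiquitous network. For Col4a1 the 26-week db/m libraries had 147.1, 123.5, 135.9, 134.9 and 137.0, and db/db Unx ranged from 111.7 to 179.0 (median 160.0). At 35 weeks db/m ranged from 119.7 to 161.9 (median 138.5) and db/db Unx had 167.7, 155.5, 171.0, 199.2 and 196.3. At 35 weeks 4 of the 5 db/db Unx libraries were thus above all db/m libraries, while at 26 weeks the groups overlapped at both ends. Its log2 change was 0.19 ± 0.08 at 26 weeks, not called (limma, adjusted p 0.0586), and 0.34 ± 0.09 at 35 weeks (adjusted p 0.00283). At 26 weeks it was called after quantile normalization (adjusted p 0.00693) and in 5 of the 28 runs that left out a library: db/m replicate 1 at 26 weeks or 5 at 35 weeks, or db/db Unx replicate 4, 10 or 12 at 26 weeks (adjusted p 0.0057 to 0.0496). Without the 3 libraries that lay apart, the 35-week value was 0.21 (adjusted p 0.248) and not called.

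Col4a2 had 118.9, 115.5, 108.2, 95.38 and 100.7 in db/m at 26 weeks, and 89.13 to 146.2 (median 129.7) in db/db Unx. At 35 weeks db/m ranged from 94.54 to 116.9 (median 102.1) and db/db Unx had 128.5, 135.2, 136.8, 151.7 and 153.0, with no overlap. The log2 change was 0.22 ± 0.08 at 26 weeks (limma, adjusted p 0.0318) and 0.42 ± 0.09 at 35 weeks (adjusted p 0.000442). The call at 26 weeks held with 24 of the 28 libraries left out in turn and was lost without db/m replicate 3, 4 or 5 (adjusted p 0.0521, 0.12 and 0.0889) or db/db Unx replicate 11 (0.0501). Without the 3 libraries that lay apart, the 35-week change was 0.33 (adjusted p 0.0694). Its exons share 43 bases with the antisense gene Gm15419.

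**Figure D3:**
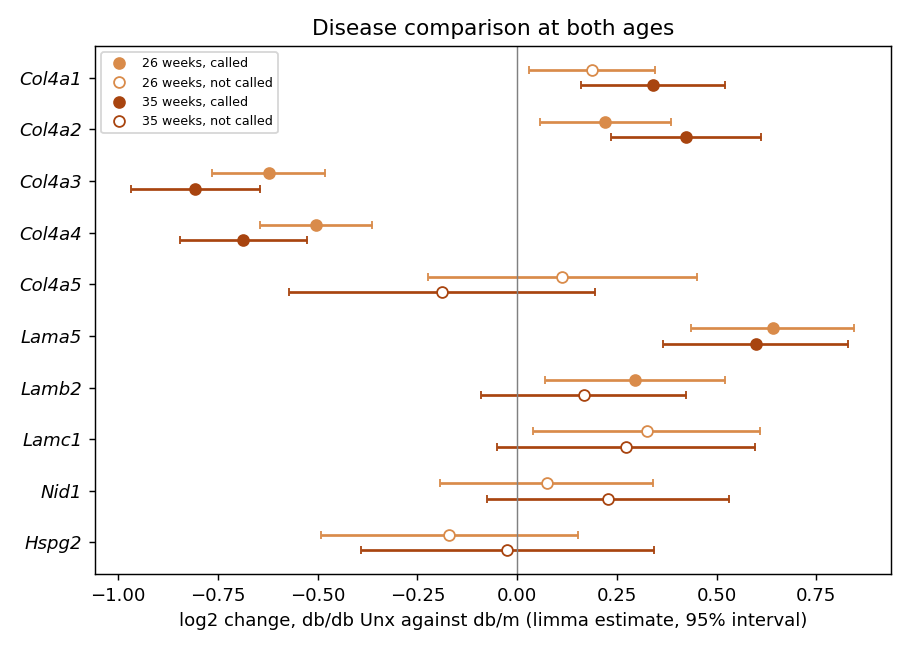
Log2 change of each gene between db/db Unx and db/m (x axis) at 26 and 35 weeks, with 95% intervals; filled points passed an adjusted p of 0.05. Col4a3 and Col4a4 lie to the left of 0 and Lama5 to the right at both ages, and Nid1 and Hspg2 straddle 0.

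Within a library, the ratio of the levels per kb does not depend on the library's scaling factor, and is given as a description. At 26 weeks, Col4a3 relative to Col4a1 was 0.88 ± 0.10 (SD, n = 5) in control mice and 0.50 ± 0.08 (n = 12) in diseased mice. At 35 weeks it was 1.02 ± 0.13 (n = 6) and 0.46 ± 0.05 (n = 5). The highest db/db Unx ratio was 0.66 and the lowest db/m ratio 0.72. Col4a4 relative to Col4a2 was 0.92 ± 0.10 and 0.56 ± 0.09 at 26 weeks, and 1.03 ± 0.09 and 0.48 ± 0.09 at 35 weeks. The lowest db/m value, 0.78, was again above the highest db/db Unx value, 0.74. Within a gene pair the ratio changed far less. Col4a1 relative to Col4a2 averaged 1.10 to 1.19 in the 4 groups, and Col4a3 relative to Col4a4 averaged 0.99 to 1.17, with overlapping ranges.

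**Figure D4:**
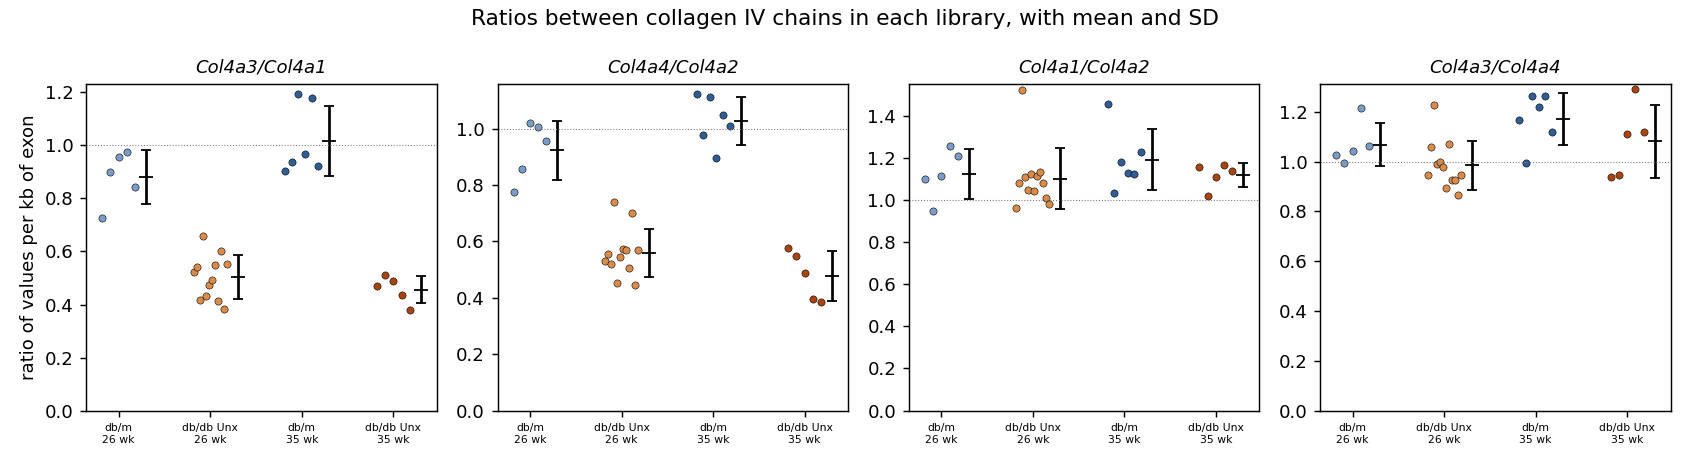
Ratio of values per kb of exon between collagen IV chains in each library (points) with mean and SD (bars), the dotted line marking 1. The ratios between networks, Col4a3/Col4a1 and Col4a4/Col4a2, separate db/m from db/db Unx, while those within a gene pair overlap.

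Among the 3 member laminin chains, Lama5 changed most. It encodes the alpha5 chain, the alpha chain of the mature glomerular and of most tubular basement membranes. The 26-week db/m libraries had 28.86, 20.74, 26.64, 31.86 and 28.58, and db/db Unx ranged from 34.32 to 50.33 (median 43.66). At 35 weeks db/m had 41.37, 25.83, 38.11, 38.24, 26.62 and 27.66, and db/db Unx had 47.98, 43.71, 47.20, 54.80 and 54.85. The groups did not overlap at either age. The log2 change was 0.64 ± 0.10 at 26 weeks (limma, adjusted p 2.97e-06) and 0.60 ± 0.11 at 35 weeks (adjusted p 7.61e-05), and both calls held under each of the 9 other settings and with each library left out.

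Lamb2 encodes the beta2 chain, whose loss causes Pierson syndrome. Its db/m values at 26 weeks were 25.39, 20.31, 24.49, 22.18 and 21.69, and db/db Unx ranged from 18.93 to 38.40 (median 29.82). At 35 weeks the ranges were 26.31 to 35.86 in db/m and 29.50 to 41.75 in db/db Unx. The groups overlapped at both ages. The log2 change was 0.30 ± 0.11 at 26 weeks (limma, adjusted p 0.0367) and 0.17 ± 0.13 at 35 weeks (adjusted p 0.344, and 0.08 with an adjusted p of 0.812 without the 3 libraries). The 26-week call held with 20 of the 28 libraries left out in turn, and was lost without db/m replicate 2, 4 or 5 or db/db Unx replicate 1, 2, 5, 6 or 10 (adjusted p up to 0.107).

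Lamc1 encodes the gamma1 chain of most laminins. Its values were 13.35, 16.72, 6.167, 13.17 and 16.66 in db/m at 26 weeks and 11.77 to 19.62 in db/db Unx, with a log2 change of 0.33 ± 0.14 (limma, adjusted p 0.0692). Without db/m replicate 2 or 5, or db/db Unx replicate 6, it was called (adjusted p 0.0268, 0.028 and 0.0409). At 35 weeks db/m ranged from 12.69 to 17.96 and db/db Unx from 14.85 to 23.27, with a change of 0.27 ± 0.16 (adjusted p 0.202), which was 0.06 (adjusted p 0.909) without the 3 libraries. The db/m library at 6.167 (replicate 3) was far below the other 4 of its group, and without it the 26-week change was 0.10 (adjusted p 0.574).

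The linkers were not called. Nid1 averaged 28.6 ± 5.56 in control and 29.96 ± 4.93 in diseased mice at 26 weeks, then 24.7 ± 6.25 and 28.7 ± 4.82 at 35 weeks. Its log2 change was 0.07 (95% interval -0.19 to 0.34) and 0.23 (-0.08 to 0.53). The 35-week value was 0.03 (adjusted p 0.96) without the 3 libraries and 0.34 (adjusted p 0.0598) without db/m replicate 1, the highest library of its group. Exons of the antisense gene Gm48682 share 143 bases with it. Hspg2 averaged 12.9 ± 2.48 and 11.5 ± 2.73 at 26 weeks, and 13.9 ± 4.65 and 13.3 ± 2.47 at 35 weeks, with log2 changes of -0.17 (-0.49 to 0.15) and -0.02 (-0.39 to 0.34), the latter 0.13 (adjusted p 0.791) without the 3 libraries. These intervals allow changes in either direction, so neither gene is shown to be unaltered.

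The comparison of 35 with 26 weeks asked what age and advancing disease add. In db/db Unx limma called 0 of the 10 members (11.3% of genes were called, 5.16% higher and 6.14% lower), with 0 whose groups did not overlap (1.34% of genes) and 4 at an unadjusted p under 0.05. These were Col4a1, at 0.20 ± 0.08 with an adjusted p of 0.0993, Col4a2 (0.17, 0.196), Lama5 (0.21, 0.191) and Lamb2 (0.28, 0.0949). Without the 3 libraries that lay apart they stood at 0.06, 0.07, 0.10 and 0.20 (adjusted p 0.952, 0.948, 0.941 and 0.84). Lamb2 was called without db/db Unx 26-week replicate 5 (adjusted p 0.0462), and Col4a1 without db/db Unx 35-week replicate 2 (0.0468). In db/m mice 2 members were called (7.4% of genes), both higher at 35 weeks (2.73% were called higher and 4.68% lower). Lamb2 rose from 22.8 ± 2.08 to 30.8 ± 3.58, by 0.41 ± 0.13 (adjusted p 0.0392), with no overlap (4.99% of genes), and Col4a3 rose from 158.9 ± 15.0 to 189.1 ± 17.5, by 0.25 ± 0.08 (adjusted p 0.0470). The call of Col4a3 was lost in 12 and that of Lamb2 in 7 of the 28 runs that left out a library, with adjusted p up to 0.129 and 0.101, so both stood close to the threshold.

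Whether the disease change differed by age was tested directly, and 0 members were called (0.548% of genes, 0.393% higher and 0.156% lower), and 0 had an unadjusted p under 0.05 by limma. For Col4a3 it was -0.18 (95% interval -0.40 to 0.03), for Col4a4 -0.18 (-0.40 to 0.03), for Col4a1 0.15 (-0.09 to 0.39) and for Col4a2 0.20 (-0.05 to 0.45). A larger change at 35 weeks than at 26 weeks is therefore not shown for these genes. Without the 3 libraries the differences were -0.21, -0.02, 0.02 and 0.11 in the same order. For Lama5 the difference was -0.04 (-0.35 to 0.27), and -0.15 without them.

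Cell type markers were measured in the same libraries. Among all genes tested, 17.2% were called higher and 17.7% lower at 26 weeks, and 15.9% and 16.4% at 35 weeks. In bulk tissue, fewer cells of a type and less RNA per cell cannot be told apart. Of 14 podocyte markers, 6 rose and 1 fell at 26 weeks and 5 rose and 1 fell at 35 weeks (1 and 1 without the 3 libraries). Their summed value was 265.5 to 284.6 in control and 281.3 to 330.8 in diseased mice at 26 weeks, then 269.8 to 316.3 and 290.8 to 375.9 at 35 weeks. The median log2 change of the 14 was 0.33 at 26 weeks and 0.18 at 35 weeks (0.15 without the 3 libraries). The marker that fell, against these medians, was Clic5, a podocyte foot process gene, by 0.53 and by 0.36. Of 12 proximal tubule markers, 0 rose and 8 fell at each age, with sums of 18810 to 21290 in control and 13240 to 15750 in diseased mice at 26 weeks and of 18260 to 20660 and 12630 to 14030 in the older mice. Of 12 endothelial markers, 0 rose and 3 fell at 26 weeks, and 1 rose and 2 fell at 35 weeks (0 and 2 without the 3 libraries). Of 12 markers of mesangium, smooth muscle and pericytes, 4 rose at 26 weeks, and 3 rose and 1 fell at 35 weeks (1 and 0 without the 3 libraries). Of 10 injured tubule markers, 8 and 10 rose (9 at 35 weeks without the 3 libraries). Of the 6 fibroblast markers tested, 4 and 5 rose (2 at 35 weeks without the 3 libraries), and of 5 parietal epithelial markers 3 and 3 rose (2 at 35 weeks without them). Of 8 markers of the thick ascending limb and distal tubule, 5 rose and 1 fell at 26 weeks and 3 rose and 2 fell at 35 weeks (3 and 1 without the 3 libraries). Of 8 collecting duct markers, 5 rose and 1 fell at 26 weeks and 2 rose and 2 fell at 35 weeks (1 and 0 without the 3 libraries). All 4 hepatocyte markers rose at each age (3 at 35 weeks without the 3 libraries), with sums of 60.6 to 126.4 in control and 117.0 to 262.7 in diseased mice over both ages. Of 8 macrophage markers, 0 rose and 2 fell at 26 weeks and 4 rose at 35 weeks (0 without the 3 libraries), when their sum was 386.9 to 537.2 in control and 372.0 to 3733 in diseased mice. The part of these markers in the changes of the collagen and laminin genes was not tested.

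Other components of basement membranes went both ways, as did all genes tested. In the fit of all 28 libraries, 17.2% of genes were called higher and 17.7% lower at 26 weeks. At 35 weeks these shares were 15.9% and 16.4%, and they stand beside the counts of this and the following lists. Of 25 further chains and components, 8 rose and 4 fell at 26 weeks and 6 rose and 5 fell at 35 weeks (5 and 3 without the 3 libraries), with a median log2 change of 0.10 and 0.11. Col18a1, the proteoglycan that yields endostatin, rose from 83.6 to 135.7 at 26 weeks and from 100.3 to 173.7 at 35 weeks (log2 0.69 and 0.79). Npnt, nephronectin, a ligand of integrin alpha8 beta1, rose by 0.77 and 0.53. Fras1, whose loss causes Fraser syndrome, fell by 0.91 and by 1.20, and the endothelial laminin chain Lama4 fell by 0.58 and by 0.63 (-0.15 with an adjusted p of 0.825 at 35 weeks without the 3 libraries). Col4a6, the partner of Col4a5 across their shared start region, averaged 0.145 in control and 0.750 in diseased mice at 26 weeks, a level so low that its call there (limma, adjusted p 0.0353, and 0.598 at 35 weeks) rests on few reads.

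**Figure D5:**
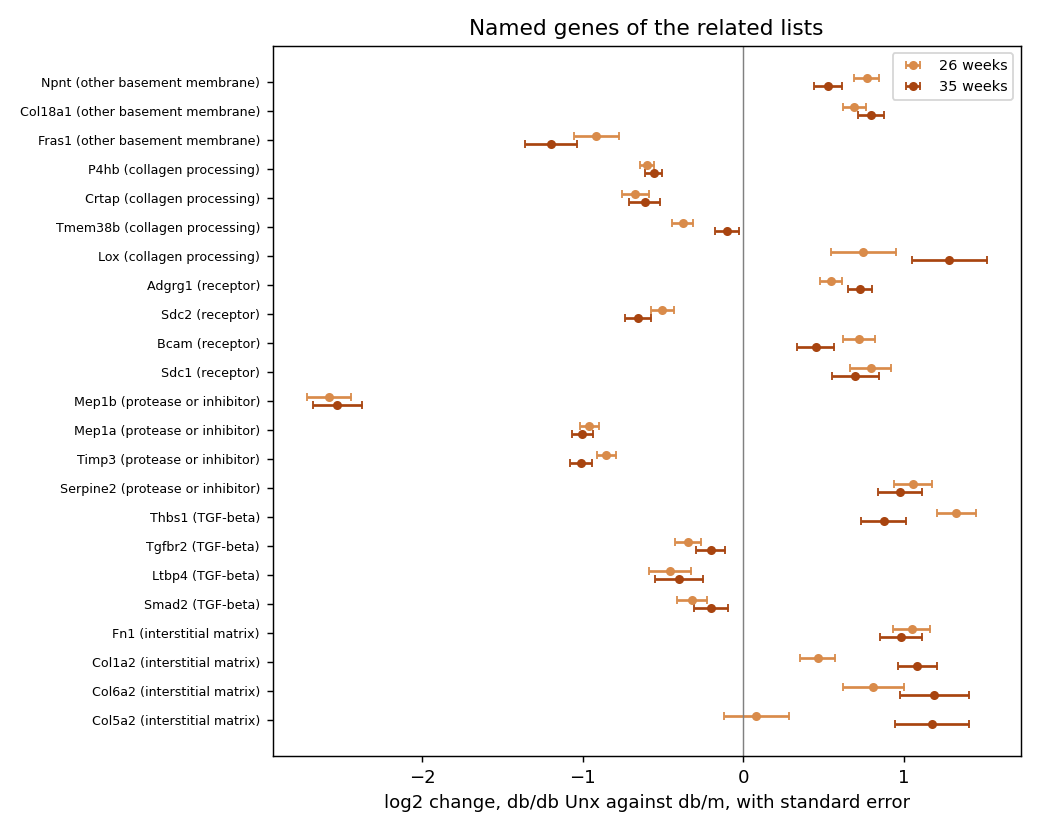
Log2 change with standard error of the genes named from the 6 related lists at 26 and 35 weeks. Mep1b, Mep1a, Timp3 and Fras1 lie lowest, and Thbs1, Serpine2 and Fn1 lie near or above 0.9 at both ages.

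Genes that fold, secrete and cross-link collagen also moved in both directions, as all genes tested did. Of the 22 tested, 4 rose and 6 fell at 26 weeks and 6 rose and 3 fell at 35 weeks (1 and 3 without the 3 libraries), with medians of 0.05 and 0.11 (0.04 at 35 weeks without them). P4hb, the beta subunit of prolyl 4-hydroxylase and a protein disulfide isomerase, fell from 959.3 to 632.0 at 26 weeks and from 994.0 to 673.9 at 35 weeks. Crtap, part of the collagen prolyl hydroxylation complex of the endoplasmic reticulum, fell by 0.67 and by 0.61. Pxdn, peroxidasin, which forms the sulfilimine cross-links of collagen IV, fell by 0.75 and by 0.77. Tmem38b, an endoplasmic reticulum cation channel, fell by 0.38 at 26 weeks and was at -0.10 and not called at 35 weeks. Lox, lysyl oxidase, rose by 0.75 and 1.28 from a low level.

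Among 17 tested receptors for collagen IV, laminin and other matrix proteins, 8 rose and 2 fell at 26 weeks and 6 rose and 1 fell at 35 weeks (3 and 1 without the 3 libraries), with medians of 0.23 and 0.27. Bcam, a receptor for the laminin alpha5 chain, rose from 52.6 to 87.5 at 26 weeks and from 67.9 to 90.6 at 35 weeks, by 0.72 and 0.45, so this receptor and Lama5 were both higher. The adhesion receptor Adgrg1 rose by 0.55 and 0.73 and the syndecan Sdc1 by 0.79 and 0.70, while Sdc2 fell by 0.50 and by 0.65 (-0.40 at 35 weeks without the 3 libraries). Integrin subunit Itga3, a laminin receptor of podocytes and tubule cells, rose by 0.50 and 0.53 (0.30 with an adjusted p of 0.212 at 35 weeks without the 3 libraries), and Itgb1, its partner, fell by 0.21 at 26 weeks.

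Of 19 tested proteases and protease inhibitors, 4 rose and 5 fell at 26 weeks and 4 rose and 4 fell at 35 weeks (3 and 4 without the 3 libraries). Mep1a and Mep1b, the brush border meprin subunits that also cleave basement membrane proteins, were among them: Mep1a fell by 0.96 at 26 weeks and fell by 1.00 at 35 weeks, and Mep1b fell by 2.58 and fell by 2.53. Timp3, the matrix-bound metalloproteinase inhibitor, fell from 2570 to 1427 and from 2506 to 1245, and Serpine2, a serine protease inhibitor, rose by 1.06 and 0.98. In the TGF-beta list of 19 tested genes, 2 rose and 3 fell at 26 weeks and 2 rose and 2 fell at 35 weeks (1 and 0 without the 3 libraries). Thbs1, which can activate latent TGF-beta, rose by 1.33 and 0.87, and Ltbp4, a latent TGF-beta binding protein, fell by 0.46 and by 0.40. Tgfbr2 and Smad2 fell at 26 weeks, by 0.34 and by 0.32, and had values of -0.20 and -0.20 at 35 weeks that were not called. Tgfb2 rose by 0.42 at 26 weeks (adjusted p 0.0512 in the fit without the 3 libraries), and Ccn2 rose by 0.48 and Bmp7 fell by 0.22 at 35 weeks. Without the 3 libraries the 35-week values of Ltbp4, Ccn2 and Bmp7 were -0.15, 0.11 and -0.15 and none of them was called (adjusted p 0.686, 0.718 and 0.396).

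Of 13 interstitial matrix genes tested, 6 rose and 0 fell at 26 weeks and 9 rose and 0 fell at 35 weeks (5 and 0 without the 3 libraries), with medians of 0.46 and 0.83 (0.51 at 35 weeks without them). Some of these genes, Col1a2 among them, are also in the fibroblast marker list, so the counts of those lists are not independent. Fn1, fibronectin, rose by 1.05 and 0.98, Col1a2 by 0.46 and 1.09 and Col6a2 by 0.81 and 1.19, and Col5a2 was at 0.08 and not called at 26 weeks and rose by 1.18 at 35 weeks. The disease changes of Col4a1 (0.19 and 0.34) and Col4a2 (0.22 and 0.42) were smaller in value than those medians. With age in db/m, Col1a2 fell from 23.5 to 15.5 (log2 -0.58, limma adjusted p 0.00261). In db/db Unx its change with age was 0.05 (adjusted p 0.835). Group means of Col5a2 ran from 0.79 (db/m, 35 weeks) to 3.16 (db/db Unx, 35 weeks), close to the filter minimum of 1.

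Covariation among libraries of 1 group was examined in the 12 db/db Unx libraries of 26 weeks, over all 45 pairs of members. No pair passed after adjustment over the 45 (0 called by Pearson and 0 by Spearman correlation, permutation tests with 100000 resamples), and 6 had an unadjusted p under 0.05. Col4a1 and Col4a2, which share a start region, had r = 0.643 (rho 0.378, adjusted permutation p 0.294 and 0.722), but r = -0.203 without the 2 libraries farthest from the median of Col4a1, so the relation rests on those libraries. Col4a3 and Col4a4 had r = 0.648 (rho 0.734, adjusted permutation p 0.294 and 0.189) and 0.593 without 2 libraries. Col4a3 and Col4a5 had r = -0.663 (rho -0.790, adjusted permutation p 0.294 and 0.151) and -0.875 without 2 libraries. The largest r was that of Col4a5 and Nid1, 0.679 (rho 0.559, adjusted permutation p 0.294 and 0.57), and 0.412 without 2 libraries. Col4a1 and Lama5 had r = -0.616 (rho -0.573, adjusted permutation p 0.294 and 0.57) and -0.665 without 2 libraries. Lamb2 and Hspg2 had r = -0.5985 (rho -0.420, adjusted permutation p 0.294 and 0.722) and -0.618 without 2 libraries. None of these relations passed adjustment.

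Over all 28 libraries, after each gene's group mean was subtracted, the genes most like each member were found by Pearson r among 13494 others, as a description. Col4a2 was at rank 51 for Col4a1 (r = 0.559), and Col4a4 at rank 85 for Col4a3 (r = 0.482). The highest for Col4a1 were Rgs4 (0.769), Arhgap45 and Axl, and for Col4a2 they were Ckap5 (0.777), Col5a1 and Spire2. Those for Col4a3 were Nsdhl (0.646), Wasf1 and Slc35g2, for Col4a4 Serpinf2 (0.745), Zfand6 and Nek2, and for Col4a5 Fopnl (0.706), Itga5 and Cebpa. Partner chains of a head-to-head pair ranked from 51 to 228 (Col4a3 for Col4a4), while Col4a5 ranked 12971 for Col4a3 (r = -0.366). Such ranks were not particular to these partners: Nid1, on another chromosome, ranked 159 for Col4a1 (r = 0.483). Lama5 was closest to Bnip2 (0.673), Siah1a and Ltbp2, Lamb2 to Tcaf1 (0.667), Cspg4 and Col8a1, and Lamc1 to 1810041H14Rik (0.709), Pacs2 and B4galnt1. Nid1 was closest to Snx14 (0.665), Lrp1 and Fam213a, and Hspg2 to Robo4 (0.764), Egfl7 and Clpx, of which Robo4 and Egfl7 are endothelial genes.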

How the data were processed

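The authors deposited 1 table of scaled signal values per gene for 28 libraries, made with DRAGEN on GRCm38 (mm10) per the submitters' processing notes. Its version, annotation, scaling and strand setting: not given in the sources used here. Column sums of the deposited signal were 896873 to 1018934. In each library 89.1% to 91.9% of low values were, to within 0.1, whole multiples of the library's step, so depth is given as estimated counts, and no count model was run. Symbols matched 14834 of 14845 identifiers; coordinates and exon-union lengths came from the GENCODE annotation of GRCm38.

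The 13495 genes that reached 1 in 5 or more libraries were tested as log2(value + 1) with limma 3.58.1 in R 4.3.3 (4 group means, trend, robust moderation, two-sided, Benjamini-Hochberg, called at an adjusted p under 0.05), after tests on simulated data. Errors of log2 changes are moderated standard errors. Members, lists and tests were chosen with earlier results of these data known. From each list, up to 4 called genes with the smallest adjusted p in the disease comparisons are named; other list and marker genes were chosen after their values were seen. Some genes of the lists are not reported here. For each member, the 3 genes of highest r are named. Listed genes that are not in the table were not analysed here. The labels state no pairing of libraries by replicate number, and none was fitted in the main tests. Promoters are RefSeq's.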

Additional observations from a re-analysis of the deposited data

Results flagged for a closer look

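Of the 30 sets of values tested for a stray library (10 genes in the 3 groups of 5 or 6 libraries), 1 was flagged, where chance gives about 1 in 20. Nid1 in db/m replicate 1 at 35 weeks had 36.6, far from the next highest library of its group at 26.0. Without it the 35-week change of Nid1 was 0.34 (adjusted p 0.0598) in place of 0.23 (adjusted p 0.266).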

How the results depend on the processing

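The calls of Col4a3, Col4a4 and Lama5 in both disease comparisons held under all alternatives run. At 26 weeks 5 members were called, but 3 without trend and robust moderation and 3 when the groups of the comparison alone were fitted, where Col4a2 and Lamb2 were lost; with libraries left out in turn the count ran from 3 to 6 (3 without db/m replicate 4). At 35 weeks 5 were called, 5 to 5 with libraries left out, and 3 without the db/db Unx libraries 3, 5 and 6, which leaves 2 in that group. In db/m 2 were called with age, 1 without the low-value filter, 1 with median-ratio factors, 1 after quantile normalization, 1 without those 3 libraries, 0 without trend and robust moderation, and 0 to 2 with libraries left out (0 without 26-week db/m replicate 2 or 5 or 35-week db/m replicate 3, 4 or 5). With age in db/db Unx the range was 0 to 1, and for the difference between ages 0 to 0. Of the 440 single-gene values under the other settings, 14 lost and 1 gained a call and 0 reversed. Quantile normalization also ended the 26-week call of Lamb2 (adjusted p 0.0659). The cause of these changes was not tested. No member pair was called under any setting of the correlations. Over all genes, the deviations of same-numbered libraries of different groups correlated at -0.135 to 0.084. Those of differently numbered libraries correlated at -0.147 to 0.171. A tie by number in a subset of genes was not tested. With the replicate block 4, 5, 2, 0 and 0 members were called in the 5 comparisons in the order given here. Col4a2 at 26 weeks was lost (0.15, limma adjusted p 0.252). Over all genes, 483 in place of 1526 were called with age in db/db Unx and 29 in place of 74 for the difference between ages. Without the 3 libraries these counts were 8 and 0, and that of the 35-week disease comparison 2408 in place of 4357; leaving out 1 library moved them to 630 (db/db Unx 35-week replicate 5) and to 7 (the same library) up to 249 (replicate 2). List and marker counts without these 3 libraries were added after the data were seen. The difference between ages could not be fitted with the groups of 1 comparison alone. The intervals of Col4a5, Lamc1 and Hspg2 were the widest among the members, which limits what they show. The part of their low levels in this was not tested.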
